A study of Mus musculus with 6 samples.

Results

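A set of 10 imprinted genes that regulate growth were followed in mouse keratinocyte lines with and without integrin α3β1. The genes were Ndn, Peg3, Igf2, Plagl1, Dlk1, Mest, Cdkn1c, Grb10, Peg10 and Phlda2, and they were found by gene symbol in the platform annotation of the arrays. Of these 10 genes, 8 had a transcript cluster (the set of exons that the array assigns to 1 locus) carrying their symbol alone, among 23332 clusters on the array and 14996 with 1 symbol. Mest and Peg10 had no such cluster in the annotation used here and are not analysed. A further cluster carries both Meg3 and Dlk1 and was counted for neither gene.

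Total RNA of 3 immortalized keratinocyte lines was hybridised to exon arrays, 2 for each line and 6 in all. The rescue line (MK546_3a rescue) is the α3-null line after stable transfection with human α3. The null line (MK546_a3null) came from newborn mice lacking α3, the laminin-binding partner of β1 integrin, and the wild-type line (MK116_wild type) from newborn wild-type mice. All 3 lines carried the SV40 large T antigen, which binds p53 and Rb, and grew on denatured collagen in a low-calcium medium with insulin, EGF, hydrocortisone and interferon-γ. There was 1 line of each kind, the arrays are described as biological replicates, and nothing says that they came from separate cultures. The p-values therefore measure the spread between these arrays, which may be technical, and wild-type cells differ from the other lines by their mice of origin as well as by α3.

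Imprinted genes are transcribed mainly from 1 parental copy, set by DNA methylation laid down in the germ line. Many of them act on growth before birth, and as a broad pattern paternally expressed ones such as Igf2 promote growth while maternally expressed ones such as Cdkn1c, Phlda2 and Grb10 restrain it. The arrays read total RNA of a gene and do not tell the parental copies apart.

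Array values were PLIER intensities, which summarise the probes of a cluster into a linear value. The median cluster read 96.6 to 108 on the 6 arrays, and several members averaged below it: Peg3 and Dlk1 in all lines, Igf2 in rescue and null cells, Ndn in null cells and Plagl1 in wild-type cells. A background level is not given in the sources. Beside Peg3, the olfactory receptor gene Olfr1349 averaged 90.9 in rescue cells, 71.8 in null cells and 90.8 in wild-type cells. In the same order Olfr1350 averaged 75.4, 82.5 and 66.8, and Olfr1348 averaged 15.7, 12.8 and 13.1. Whether the dim members stood above background was not tested. Differences below are on the log2(intensity + 16) scale, on which changes of dim genes come out too small. Itga3, the targeted gene, read 1218 and 1221 in rescue cells, 997 and 907 in null cells, and 6364 and 6287 in wild-type cells. Mouse probes may miss part of the human rescue transcript. Of 12 keratinocyte markers 10 were measured, led by Krt5, and their summed intensity was 49547 to 53209 in rescue cells, 55840 to 58226 in null cells and 54530 to 56213 in wild-type cells. Of these 10, Col17a1, Dsg3, Itga6 and Trp63 rose in null against wild type and fell in rescue against null (40% called in each, with 0 in the other direction). Over all clusters limma called 15.3% and 15.4% in those comparisons. Both use the same null arrays with opposite sign, so opposite moves of a gene in them are not independent readings. In rescue against wild type 0 of the 10 were called (15.4% of all clusters), where 5 of 10 had an unadjusted limma p under 0.05. The part of these markers in the differences of the members was not tested.

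Promoter windows are shown for Ndn, Peg3, Phlda2 and Plagl1, the called members with 1 annotated start each in the RefSeq table of build GRCm38.p6. Each line holds the 250 bases before that start, read 5′ to 3′ on the strand of the gene, at chr7:62348027-62348276 (plus strand) for Ndn, chr7:6730420-6730669 (minus strand) for Peg3, chr7:143502525-143502774 (minus strand) for Phlda2 and chr10:13090582-13090831 (plus strand) for Plagl1. Capitals mark GGGCGG (a GC box), TGCCGC (the core of the ZFP57 motif) and TATAAA, on either strand.
Ndn: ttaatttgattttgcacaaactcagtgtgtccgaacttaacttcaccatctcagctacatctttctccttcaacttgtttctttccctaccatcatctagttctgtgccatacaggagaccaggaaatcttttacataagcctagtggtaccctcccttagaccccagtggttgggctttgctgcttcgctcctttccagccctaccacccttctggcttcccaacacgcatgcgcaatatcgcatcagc
Peg3: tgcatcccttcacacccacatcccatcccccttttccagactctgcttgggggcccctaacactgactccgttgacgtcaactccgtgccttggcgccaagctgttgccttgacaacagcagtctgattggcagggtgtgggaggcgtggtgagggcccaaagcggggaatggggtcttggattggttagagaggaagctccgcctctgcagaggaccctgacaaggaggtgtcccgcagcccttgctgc
Phlda2: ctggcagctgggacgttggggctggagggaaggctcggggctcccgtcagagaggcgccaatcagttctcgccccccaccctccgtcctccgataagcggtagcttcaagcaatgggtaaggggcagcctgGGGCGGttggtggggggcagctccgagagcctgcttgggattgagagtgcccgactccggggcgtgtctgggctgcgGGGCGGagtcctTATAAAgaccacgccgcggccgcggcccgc
Plagl1: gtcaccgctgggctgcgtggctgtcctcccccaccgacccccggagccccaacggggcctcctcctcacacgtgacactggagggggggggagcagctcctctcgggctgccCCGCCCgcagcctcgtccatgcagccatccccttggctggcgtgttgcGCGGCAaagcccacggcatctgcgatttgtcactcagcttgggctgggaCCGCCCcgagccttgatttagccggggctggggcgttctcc
None of these motifs occurred in the Ndn window, which held 5 CpG, or in the Peg3 window, which held 8 CpG. The Phlda2 window held 2 copies of GGGCGG, 1 TATAAA and 21 CpG. The Plagl1 window held 2 copies of GGGCGG, 1 TGCCGC and 19 CpG. Of all 32851 windows in the table, 32.7% held GGGCGG, 8.68% held TGCCGC and 12.4% held TATAAA, and the median was 6 CpG. These are matches of letters in a window and show neither binding nor methylation, which the arrays did not measure.

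Null cells were set against wild-type cells to ask which of these genes differ where α3 is absent. Ndn and Igf2 fell, Plagl1 and Phlda2 rose, and Peg3, Dlk1, Cdkn1c and Grb10 did not pass the test. The largest difference was in Ndn, whose mean intensity in null cells was 22.0% of that in wild-type cells. How much of that intensity was background was not tested. In limma 4 of 8 members were called at an adjusted p under 0.05, 2 lower and 2 higher, where 15.3% of all clusters were called (6.84% lower and 8.49% higher). The members were chosen with earlier results of these data known, so their share of calls does not test the set in any comparison. Higher calls made up 55.4% of all calls, and 68.1% after each array was centred on its median. The median difference of the members was -0.18, and -0.01 over all clusters.

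Ndn encodes necdin, a MAGE family protein that binds E2F1 and p53 and slows proliferation in neurons. It read 122 and 94.3 in rescue cells, 80.1 and 101 in null cells, and 406 and 417 in wild-type cells. Both wild-type arrays stood far above all others, while the rescue and null arrays overlapped. Ndn differed by -2.01 ± 0.15 (SE) for null against wild type (limma adjusted p = 7.06e-04). Between rescue and wild type it differed by -1.79 ± 0.15 (limma adjusted p = 0.00116). The rescue arrays did not differ detectably from the null arrays, with a difference of 0.22 and a 95% interval of -0.14 to 0.58 (limma adjusted p = 0.401).

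Igf2 encodes insulin-like growth factor II, a fetal growth factor that signals through the IGF-1 and insulin receptors. Its intensity was 67.4 and 63.3 in rescue cells, 68.9 and 67.2 in null cells, and 120 and 119 in wild-type cells. Wild-type arrays were higher with no overlap, and rescue and null arrays overlapped. Igf2 differed by -0.69 ± 0.10 in null cells against wild type (limma adjusted p = 0.00765). In rescue cells against wild type the difference was -0.74 ± 0.10 (limma adjusted p = 0.00660). Without any 1 of the null or wild-type arrays, the null against wild-type call was lost (limma adjusted p = 0.0501 to 0.0608), and without wild-type replicate 2 so was the rescue against wild-type call (0.0543). Rescue minus null was -0.05, with a 95% interval of -0.29 to 0.19.

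Plagl1 encodes a zinc finger transcription factor (also called ZAC1) that can arrest the cell cycle and, in mouse embryonic tissue, regulates other imprinted genes. Its arrays gave 149 and 139 in rescue cells, 161 and 163 in null cells, and 103 and 99.6 in wild-type cells. None of the 3 lines overlapped. The rise was 0.60 ± 0.09 in null cells against wild type (limma adjusted p = 0.00887) and 0.45 ± 0.09 in rescue cells against wild type (limma adjusted p = 0.0241). Rescue minus null was -0.15, with a 95% interval of -0.37 to 0.06 (limma adjusted p = 0.329). The null against wild-type call was lost without any 1 of the null or wild-type arrays (limma adjusted p = 0.0569 to 0.0649). The rescue against wild-type call was lost without any 1 of the 6 arrays (0.0534 to 0.128) and in a fit of only those lines (0.0558).

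Phlda2 encodes a pleckstrin homology domain protein that restrains growth of the placenta. It read 754 and 514 in rescue cells, 504 and 685 in null cells, and 239 and 238 in wild-type cells. The wild-type arrays nearly coincided and stood below the rest, while the arrays within the rescue line and within the null line differed widely. Mean intensity in null cells was 2.49 times that in wild-type cells, a difference of 1.24 ± 0.21 (limma adjusted p = 0.0135). In rescue cells it was 2.66 times the wild-type mean, a difference of 1.33 ± 0.21 (limma adjusted p = 0.0119). Without either wild-type array both calls were lost (limma adjusted p = 0.0663 to 0.0827), and without null replicate 2 the null call was lost (0.0676). Rescue minus null was 0.08, with a 95% interval of -0.43 to 0.59.

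**Figure D1:**
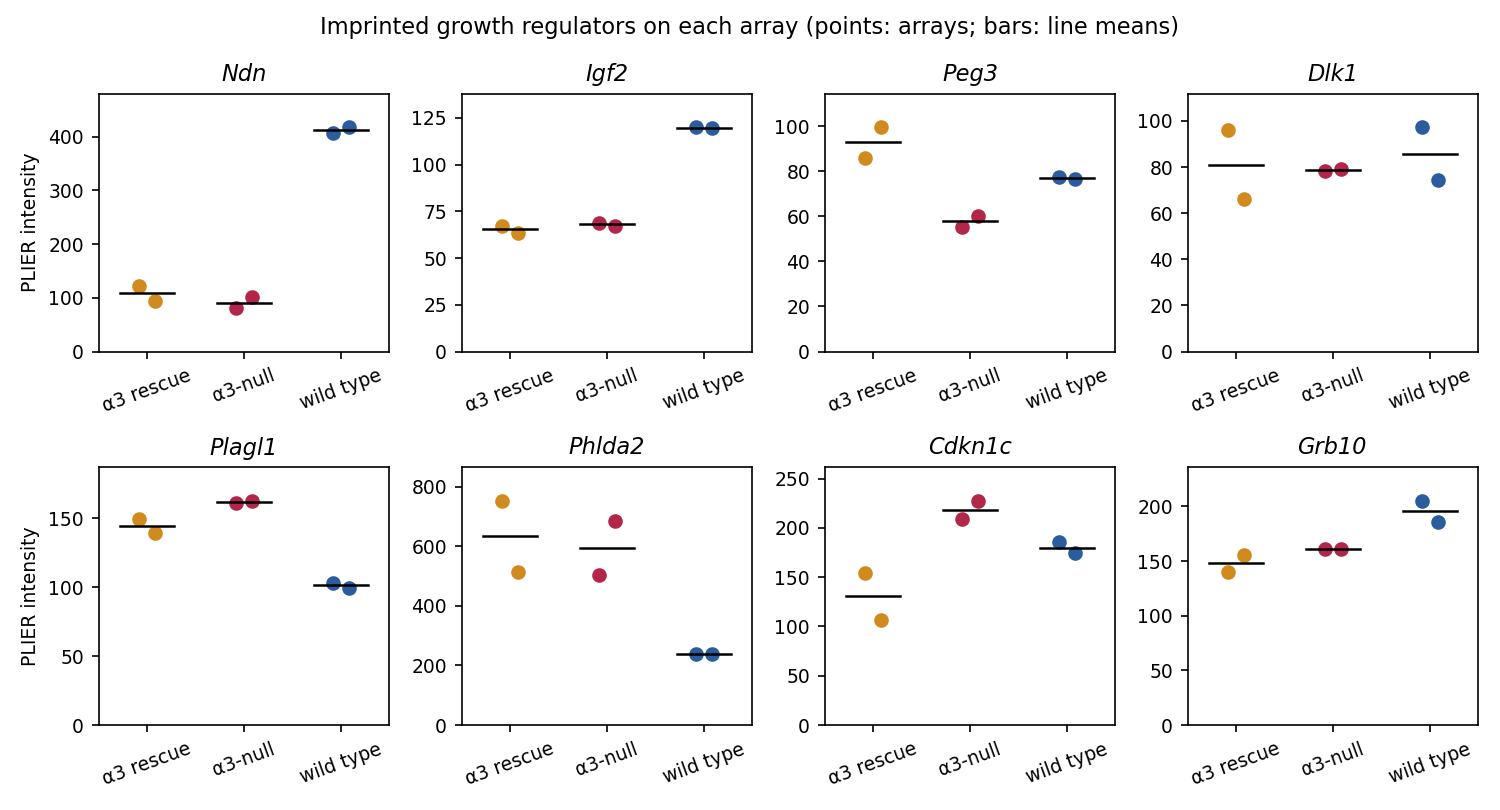
PLIER intensity (y axis, linear from 0, its own scale in each panel) of 8 imprinted genes on the 2 arrays of each line (x axis); points are arrays and bars are line means. Both wild-type arrays lie above the other 4 for Ndn (406 and 417) and Igf2, and below them for Plagl1 and Phlda2.

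The rescue line was compared with its null parent, from which it differs by stable transfection as well as by human α3. No null line transfected without α3 was among the arrays. Whether a difference of any gene in the comparisons with rescue cells goes with α3 or with the transfection was therefore not tested. In limma 2 of 8 members were called, Peg3 higher and Cdkn1c lower, where 15.4% of all clusters were called (9.75% higher and 5.62% lower). Of all calls 63.4% were higher, but the share was 49.9% with quantile normalization and 40.9% with median centring, a step that shifted every difference by about -0.12. The members had a median of -0.02, and all clusters 0.02. As null minus wild type uses the same null arrays, opposite moves of a gene in the pair are not independent readings.

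Peg3 encodes a zinc finger protein that takes part in TNF and p53 signalling. Its arrays gave 86.1 and 99.6 in rescue cells, 55.4 and 60.1 in null cells, and 77.4 and 76.5 in wild-type cells. The 3 lines did not overlap, with wild type between the others. Rescue cells exceeded null cells by 0.56 ± 0.11 (limma adjusted p = 0.0257). The difference was -0.33 between null and wild type, with a 95% interval of -0.61 to -0.06 before adjustment (limma adjusted p = 0.115). Between rescue and wild type it was 0.22 (limma adjusted p = 0.258). The call in rescue against null was lost with median centring (limma adjusted p = 0.0564), in a fit of only rescue and null arrays (0.0584) and without any 1 of the 6 arrays (0.0575 to 0.124).

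Cdkn1c encodes p57, an inhibitor of cyclin-dependent kinases that in epidermis accompanies the exit from the cell cycle. It read 154 and 107 in rescue cells, 209 and 228 in null cells, and 186 and 175 in wild-type cells. The lines did not overlap, and the rescue arrays were both lowest and most spread. Mean intensity in rescue cells was 59.7% of that in null cells, a difference of -0.70 ± 0.16 (limma adjusted p = 0.0384). Null minus wild type was 0.26 (limma adjusted p = 0.385) and rescue minus wild type -0.44 (limma adjusted p = 0.133). Without rescue replicate 1 rescue minus wild type was -0.67 and passed (limma adjusted p = 0.0391), and without rescue replicate 2 it was -0.21. The call in rescue against null was lost without the variance trend (limma adjusted p = 0.0667), in a fit of only those lines (0.0762) and without any 1 array other than rescue replicate 1 (0.0653 to 0.161).

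Grb10 encodes an adaptor that binds the insulin and IGF-1 receptors and inhibits their signalling. Its intensity was 140 and 156 in rescue cells, 161 and 161 in null cells, and 205 and 186 in wild-type cells. Each line was separate from the others, with wild type highest. No comparison passed; rescue minus wild type came nearest, at -0.37 with a 95% interval of -0.60 to -0.13 (limma adjusted p = 0.0535). That difference passed with quantile normalization (limma adjusted p = 0.0342), median centring (0.0394) and the filter on dim clusters (0.0292).

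Dlk1 encodes a transmembrane protein with EGF repeats that restrains differentiation of fat and other mesenchymal cells. It read 95.9 and 66.2 in rescue cells, 78.4 and 79.2 in null cells, and 97.3 and 74.4 in wild-type cells. All lines overlapped. Null minus wild type was -0.09 with a 95% interval of -0.55 to 0.36. Rescue minus null was 0.02 with an interval of -0.44 to 0.47. A change of a size within those intervals was not detectable here. The cluster that carries both Meg3 and Dlk1 averaged 24.9 in rescue cells, 38.5 in null cells and 40.3 in wild-type cells. Both rescue arrays were lowest there, and no comparison passed.

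Rescue cells were set against wild-type cells to ask which members still differ with human α3 present. In limma 4 of 8 members were called, Ndn and Igf2 lower and Plagl1 and Phlda2 higher, where 15.4% of all clusters were called (5.05% lower and 10.4% higher). Here too the members were chosen with earlier results known, so the share does not test the set. Higher calls were 67.2% of the total, and 53.5% after quantile normalization. The members' median was -0.22, against 0.03 over all clusters. This comparison shares its wild-type arrays with null minus wild type, so the pair are not independent readings. Arrays of the lines did not overlap for 7 of 8 members in null against wild type, 4 of 8 in rescue against null and 7 of 8 in rescue against wild type, where 56.3%, 55.6% and 57.6% of all clusters did not overlap.

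**Figure D2:**
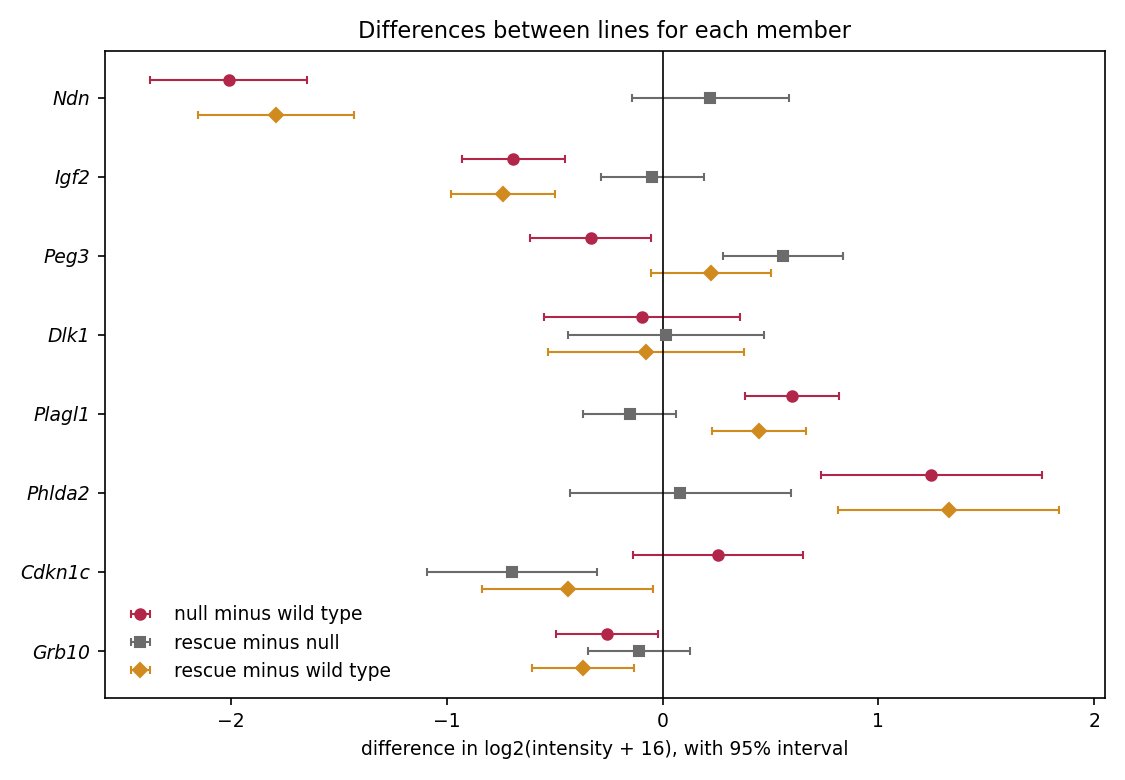
Difference in log2(intensity + 16) (x axis) for each of 8 imprinted genes (y axis) in 3 comparisons; symbols are fitted differences and bars 95% intervals from limma. For Ndn, Igf2, Plagl1 and Phlda2 the rescue minus null interval includes 0 while both differences from wild type lie to 1 side of it.

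The genes with the most similar pattern were taken by the Euclidean distance between log2 values centred over the 6 arrays, among clusters with 1 symbol. For Ndn they were Gpr50, Sirpa and Tlr2, at distances of 0.19, 0.31 and 0.34. Sirpa, a phagocytosis checkpoint receptor, averaged 109 in rescue cells, 109 in null cells and 498 in wild-type cells. Igf2 was nearest to St6galnac6, Dnase2a and Jun (0.04, 0.05 and 0.14), Plagl1 to Carm1, Nolc1 and Tlk1 (0.03, 0.03 and 0.06), and Phlda2 to Ssbp2, Rassf6 and Slc7a11 (0.39, 0.40 and 0.43). Slc7a11, the cystine transporter, averaged 4824 in rescue cells, 4742 in null cells and 2117 in wild-type cells. Peg3 was nearest to Yipf2, Ccdc163 and Saysd1 (all at 0.10), and Cdkn1c to Ginm1, Zdhhc2 and Sema5a (0.14, 0.18 and 0.19). No imprinted gene of the lists was among these 18 genes.

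Other imprinted genes were then described from a list of 57, and 38 had a cluster of their own. The list was written from textbook knowledge with earlier results of these data known, and some of its genes are imprinted mainly in the placenta. In null against wild type 8 of the 38 fell and 1 rose, or 23.7%, where 15.3% of all clusters were called. Cd81, a tetraspanin, averaged 3744 ± 270 in rescue cells, 355 ± 50.4 in null cells and 6984 ± 326 in wild-type cells (SD, n = 2). It differed by -4.24 between null and wild type and by 3.35 between rescue and null (limma adjusted p = 1.50e-05 and 9.00e-05). Pon3, a lactone hydrolase, averaged 324 ± 13.9 in rescue cells, 36.9 ± 6.18 in null cells and 244 ± 15.5 in wild-type cells (SD, n = 2). Pon2, of the same family, fell by 0.50 in null cells (limma adjusted p = 0.00640). Mkrn3, a ubiquitin ligase gene next to Ndn, averaged 73.1 in rescue cells, 49.6 in null cells and 88.6 in wild-type cells. It fell by 0.67 in null cells against wild type (limma adjusted p = 0.00957).

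Ascl2, a basic helix-loop-helix factor, fell by 0.68 in null cells (limma adjusted p = 0.0212), and Impact, a regulator of translation, by 0.32 (0.0250). Airn, the long RNA that overlaps Igf2r on the opposite strand, fell by 0.90 (limma adjusted p = 0.0323), and whether the overlap affects either cluster was not tested. The single rise was in Ube3a, a ubiquitin ligase, at 0.25 (limma adjusted p = 0.0477). In rescue against null 5 of 38 rose (Cd81, Pon3, Ascl2, Mkrn3 and Pon2) and 2 fell (Igf2r and Ube3a), or 18.4%, against 15.4% of all clusters. In rescue against wild type 1 rose, the organic cation transporter gene Slc22a18 (0.67, limma adjusted p = 0.0157), and 3 fell (Igf2r, Cd81 and Impact), or 10.5%. The share over all clusters was again 15.4%. The list had a median difference of -0.05 in null minus wild type. Its median was 0.03 in rescue minus null and -0.01 in rescue minus wild type. H19, the noncoding partner of Igf2, averaged 34.3 in rescue cells, 40.0 in null cells and 39.6 in wild-type cells and was not called in any comparison.

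**Figure D3:**
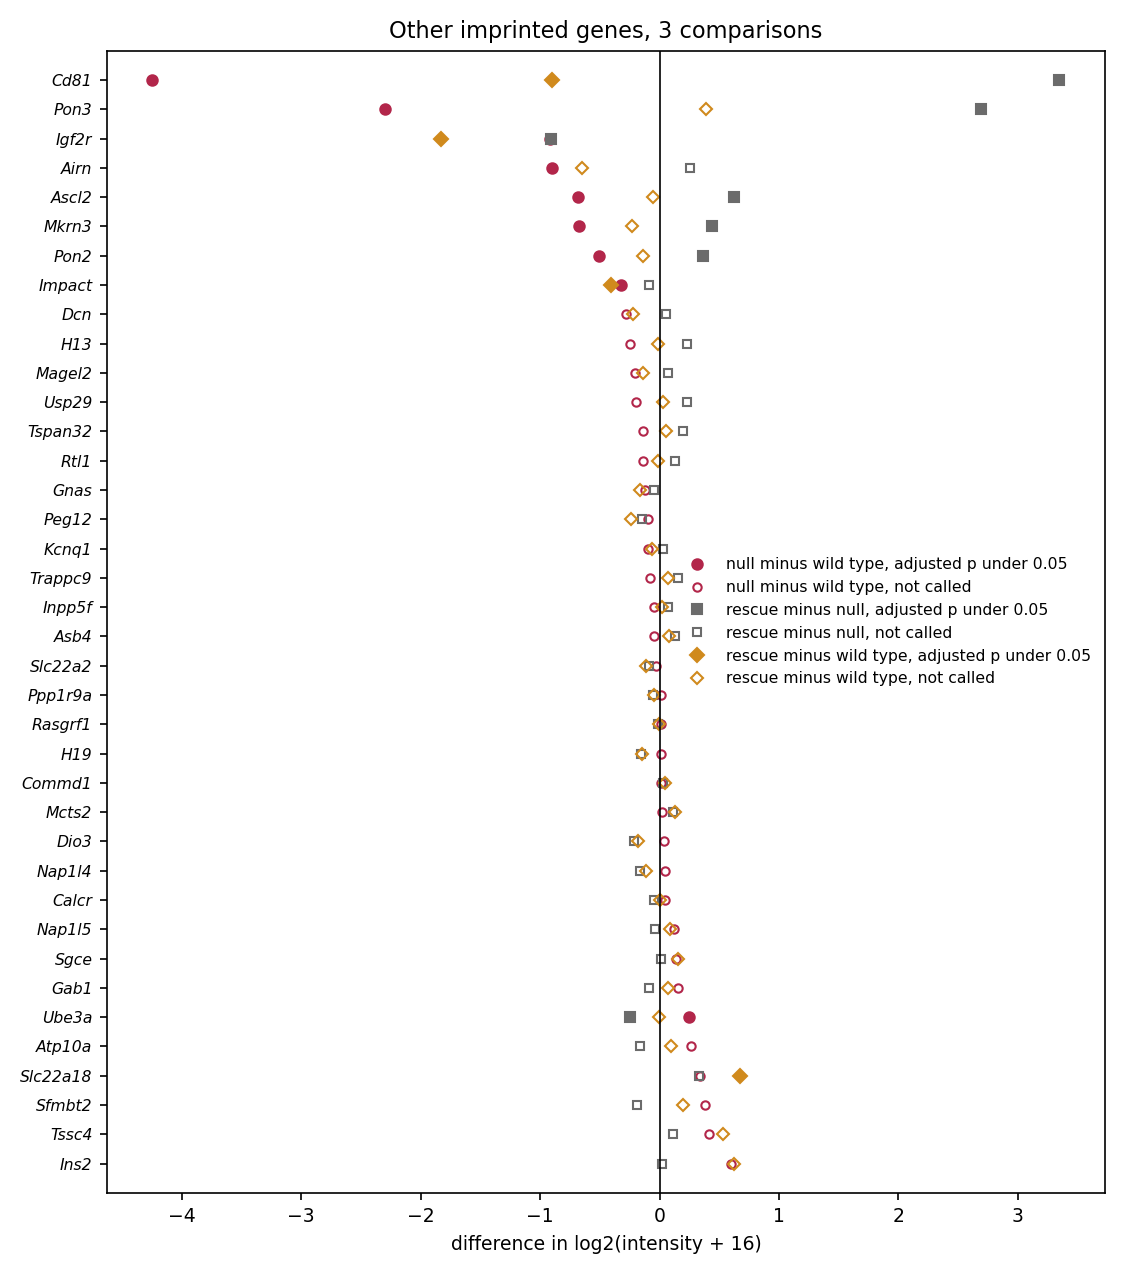
Difference in log2(intensity + 16) (x axis) for 38 other imprinted genes (y axis, ordered by null minus wild type) in 3 comparisons; filled symbols passed at a limma adjusted p under 0.05 and open symbols did not. Cd81 (-4.24) and Pon3 (-2.30) lie farthest to the left in null minus wild type, and 29 of 38 genes were not called there.

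Igf2, Cdkn1c and Phlda2 lie in the imprinted region of distal chromosome 7. From H19 to Phlda2 14 genes were measured, in a window chosen after the values were seen. Of these, 3 were lower (Igf2, Ascl2 and Cd81) and 1 higher (Phlda2) in null against wild type, and 10 were not called. Rescue against null had 2 higher (Ascl2 and Cd81) and 1 lower (Cdkn1c). Rescue against wild type had 2 higher (Slc22a18 and Phlda2) and 2 lower (Igf2 and Cd81). Over all clusters the shares called in these comparisons were 15.3%, 15.4% and 15.4%.

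**Figure D4:**
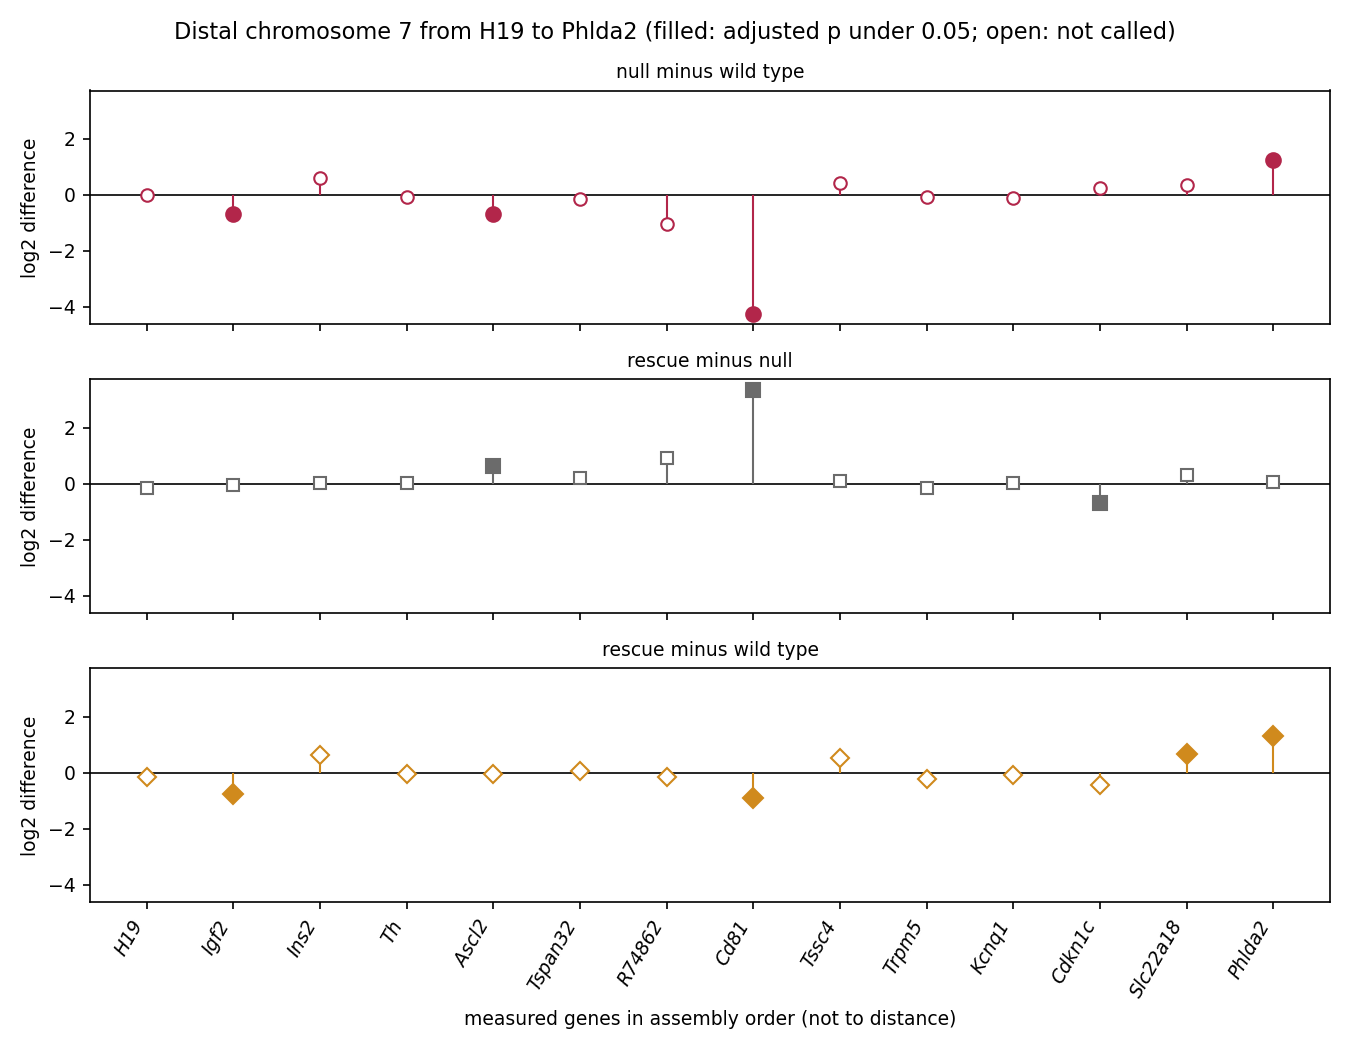
Difference in log2(intensity + 16) (y axis) for 14 measured genes of distal chromosome 7 in the order of assembly GRCm38.p6 (x axis, not to distance) in 3 comparisons; filled symbols passed at a limma adjusted p under 0.05. In null minus wild type Igf2, Ascl2 and Cd81 (-4.24) point down and Phlda2 (1.24) points up.

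Around the 10 loci, the 3 nearest measured genes on each side gave 55 genes that are not members. In null against wild type 5 of these rose and 6 fell (20% called), and in rescue against null 5 rose and 3 fell (14.5%). In rescue against wild type 4 rose and 1 fell (9.09%). The shares over all clusters were 15.3%, 15.4% and 15.4%. Next to Ndn, Magel2 and Peg12 were not called in any comparison. The pair Usp29 and Clcn4 beside Peg3 was likewise not called. Tnfrsf26, a TNF receptor family gene beyond Phlda2, averaged 4144 in rescue cells, 175 in null cells and 1225 in wild-type cells. Beside the Mest locus, Podxl, a sialomucin gene, averaged 415 in rescue cells, 115 in null cells and 302 in wild-type cells. Casd1, beside the Peg10 locus, averaged 8.13 in rescue cells, 66.8 in null cells and 198 in wild-type cells. It was called lower in all 3 comparisons. Not all called neighbours are named here.

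Of 23 genes that set, keep or remove imprints or DNA methylation, 21 were measured. In null against wild type 9 rose and 1 fell, or 47.6%. The share over all clusters was 15.3% there and 15.4% in each of the other 2 comparisons. In null minus wild type these genes had a median difference of 0.28, against -0.01 over all clusters. Brighter clusters were called more often on these arrays, and the list was chosen with earlier results known. Its share of calls therefore does not test the list. Ezh2, the Polycomb methyltransferase, averaged 2258 ± 15.3 in rescue cells, 2588 ± 82.2 in null cells and 1741 ± 31.9 in wild-type cells (SD, n = 2). It rose by 0.57 in null cells (limma adjusted p = 0.00277), and the insulator protein gene Ctcf by 0.47 (0.00918). Zfp57, which binds methylated imprinting control regions, fell by 1.32 in null cells (limma adjusted p = 0.00868). It averaged 155 ± 47.3 in rescue cells, 57.2 ± 4.79 in null cells and 167 ± 11.5 in wild-type cells (SD, n = 2). In rescue against null Zfp57 rose by 1.19 (limma adjusted p = 0.0134), and Ctcf, Dnmt3a, Hells and Trim28 fell (23.8% called in all). In rescue against wild type 4 genes rose, Dnmt1, Ezh2, Tet3 and Zfp445, and 0 fell (19%). Dnmt1, the maintenance DNA methyltransferase, averaged 1393 in rescue cells, 1343 in null cells and 953 in wild-type cells.

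Of 20 genes of IGF and insulin signalling, 17 were measured, and 2 rose and 1 fell in null against wild type (17.6%). The share over all clusters was 15.3% there and 15.4% in each of the other 2 comparisons. Igf2r, the receptor that clears IGF-II and is itself imprinted, averaged 118 ± 12.1 in rescue cells, 235 ± 4.43 in null cells and 457 ± 15.0 in wild-type cells (SD, n = 2). It fell by 0.91 in null against wild type and by 0.91 in rescue against null (limma adjusted p = 0.00240 and 0.00316). Irs1, the substrate that links IGF and insulin receptors to PI3 kinase, averaged 627 ± 47.5 in rescue cells, 422 ± 30.9 in null cells and 77.3 ± 2.28 in wild-type cells (SD, n = 2). Its rise was 2.23 in null cells and 2.78 in rescue cells against wild type (limma adjusted p = 7.51e-05 and 3.18e-05). Igf2bp3, which encodes a protein that binds Igf2 RNA, averaged 16.4 ± 3.52 in rescue cells, 376 ± 30.0 in null cells and 244 ± 5.29 in wild-type cells (SD, n = 2). Grb14, a relative of Grb10, averaged 180 in rescue cells, 91.2 in null cells and 121 in wild-type cells. It rose by 0.87 in rescue against null (limma adjusted p = 0.00394). That comparison had 2 rises (Irs1 and Grb14) and 2 falls (Igf2r and Igf2bp3), or 23.5%, and rescue against wild type had 4 rises and 2 falls (35.3%). Igf1r and Insr, the signalling receptors, were not called in any comparison.

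Of 14 CDK inhibitors and their partners 13 were measured. In null against wild type 3 rose (Ccnd2, Cdk6 and Cdkn2c) and 4 fell (Ccnd1, Ccne2, Cdkn1a and Cdkn2b), or 53.8%. The share over all clusters was 15.3% there and 15.4% in each of the other 2 comparisons. Cdkn1a, which encodes p21 and is a relative of Cdkn1c, averaged 1942 in rescue cells, 1709 in null cells and 2430 in wild-type cells, and Cdkn1b, the gene of p27, was not called in any comparison. Rescue against null had 3 rises and 2 falls (38.5%), and rescue against wild type 3 rises and 1 fall (30.8%). Since brighter clusters were called more often on these arrays, the shares do not test this list either. Of 13 close relatives of the members, all 13 measured, 1 rose and 2 fell in null against wild type (23.1%), 4 rose and 1 fell in rescue against null (38.5%), and 4 rose and 2 fell in rescue against wild type (46.2%). Plag1, a growth-promoting relative of Plagl1, averaged 181 in rescue cells, 171 in null cells and 90.1 in wild-type cells. It rose by 0.81 in null against wild type (limma adjusted p = 0.00926). Dlk2 averaged 388 in rescue cells, 200 in null cells and 282 in wild-type cells, and rose by 0.90 in rescue against null (limma adjusted p = 0.00684). The relatives of Ndn went both ways in rescue against null, where Maged2 rose by 0.85 (limma adjusted p = 0.00660) and Maged1 fell by 0.74 (0.00770), while Magel2 was not called.

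Markers of other cell types were set beside these results, since Ndn, Igf2, Peg3 and Dlk1 are known from mesenchymal cells. Of 15 fibroblast and mesenchymal markers 14 were measured, and their summed intensity was 1924 to 2168 in rescue cells, 1454 to 1471 in null cells and 2733 to 3027 in wild-type cells. In null against wild type 3 of 14 fell (Vim, Cdh2 and Twist1) and 0 rose. In rescue against null 2 rose (Cdh2 and Twist1) and 0 fell, and in rescue against wild type 1 rose (Cdh2) and 1 fell (Vim). The shares called were 21.4%, 14.3% and 14.3%, against 15.3%, 15.4% and 15.4% over all clusters. Vim, which encodes vimentin, averaged 163 ± 23.8 in rescue cells, 142 ± 7.66 in null cells and 1070 ± 184 in wild-type cells (SD, n = 2), and the collagen genes Col1a1, Col1a2 and Col3a1 were not called in any comparison. Between rescue and wild-type cells the gap in mean summed intensity was smaller than the gap in Vim alone. Vim was lower in both lines in which Ndn and Igf2 were lower. By contrast, Cdh2 and Twist1 were lower in null cells but not in rescue cells against wild type. The part of these markers, or of mesenchymal cells, in the differences of the members was not tested. Fewer cells expressing a gene and less RNA per cell cannot be told apart in these samples. Of 8 endothelial markers Flt1 alone was called in each comparison, and 0 of 7 immune, 0 of 6 melanocyte and 0 of 5 muscle markers were called in any. Many of them were dim. On all 6 arrays 7 of 8 endothelial, 5 of 7 immune, 5 of 6 melanocyte and 3 of 5 muscle markers read below the array median. So did 7 of 14 fibroblast and mesenchymal markers. At an unadjusted p under 0.05 limma gave 1 immune marker in null against wild type, 1 melanocyte marker in rescue against wild type and no muscle marker.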

How the data were processed

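Per the labels, the authors deposited PLIER intensity values from a core-exon analysis. The submitters' processing notes name Affymetrix Expression Console, and the series' design text credits the Exon Array Computational Tool. Software versions, genome build, background correction and any scaling between arrays are not given in the sources. Intensities were taken to log2(intensity + 16) and neither renormalized nor filtered. All 6 arrays and 23332 clusters entered 1 limma fit with a mean for each line (limma 3.58.1 in R 4.3.3, with lmFit and a trended eBayes, 3 residual and 3 prior degrees of freedom). Tests were two-sided at a threshold of 0.05, after Benjamini-Hochberg adjustment across the clusters of each of the 3 comparisons. The number of arrays limits the precision.

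Gene names came from the platform annotation, updated by Entrez identifier (14941 of 14996 clusters with 1 symbol matched, 0 symbols changed). Another 1019 clusters had several symbols and 7317 none in that table. Lists took the cluster of highest mean for a symbol with more than 1. The named genes were all members, with others drawn from each list and comparison (up to 4 called genes with the lowest adjusted p). The 3 nearest patterns of each called member were also named. Of the 3 measured genes on either side of each member, all were counted but only some were named. A few other genes (the remaining called members of the lists, those with no call, and the genes from H19 to Phlda2) were named after their values were seen. The members and lists were chosen with earlier results of these data known, so no share of calls tests a list. The procedure was tested on simulated data for null minus wild type, with 50 clusters changed at each size. It recovered 10% of log2 changes of 0.5, 56% of 1, 92% of 2 and 98% of 3. Of 134 calls 6 were false. Small changes were thus mostly missed there. The real comparison had 3578 calls, so its adjusted threshold let through larger unadjusted p-values than the simulated one. The recovery rates therefore do not give the share of changes found in these data.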

Additional observations from a re-analysis of the deposited data

How the results depend on the processing

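The alternatives were other pseudocounts, quantile normalization, median centring, a filter at the median cluster, no variance trend, only the lines compared, the replicate block and leaving out each array. Ndn was called against wild type in all 14 for null (limma adjusted p up to 0.0113) and all 14 for rescue (up to 0.0168). Members called in null against wild type were 4 in all settings but the filter (3), which removes Igf2, Peg3 and Dlk1, and 1 to 4 without an array. In rescue against null they were 1 with median centring, the filter or no variance trend, 0 with only those lines, and 0 to 1 without an array. In rescue against wild type they were 3 to 5 in the settings with all arrays of the lines compared, and 1 to 4 without an array.

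Clusters called numbered 3578, 3585 and 3599 in null against wild type, rescue against null and rescue against wild type. The share called was higher among brighter clusters. With the filter, which keeps only clusters above the median one, clusters called numbered 4199, 4294 and 4019. Without the variance trend they were 2306, 2277 and 2406, with only the lines compared 3536, 2343 and 2809, and without an array 1174 to 3524, 1304 to 2689 and 1088 to 2819. With the replicate block, which no label ties to a shared day, they were 3102, 3124 and 3099, with 4, 2 and 4 members called. Deviations of same-numbered arrays correlated at 0.03, -0.02 and 0.05, so the numbers were not taken to pair the arrays.

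Uncalled values changed sign in 9 cases. With an array left out, Dlk1 ran from -0.257 to 0.0694 in null minus wild type, from -0.206 to 0.239 in rescue minus null and from -0.299 to 0.145 in rescue minus wild type, and Phlda2 from -0.187 to 0.351 in rescue minus null. Dlk1 in rescue minus null was -0.0730 with quantile normalization and -0.103 with median centring, and Phlda2 was -0.0370 with median centring. Why these values moved was not tested. The 2 arrays of each line limit every value.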
